A study of Xenopus laevis with 12 samples.

Results

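Foxd4l1, geminin (gmnn) and Sox11 are regulators of immature neural ectoderm, the tissue that has received neural induction and has not yet begun to form neurons. Their values were read for every copy of foxd4l1.1, foxd4l1.2, gmnn and sox11 in the deposited tables. Rows were found by gene name, and the genes were picked with earlier results of these data known, so counts of them are not counts on genes picked blind. Of the 8 copies listed, 7 were present among the 19252 gene names of both tables, and foxd4l1.2.S was not analysed here. The allotetraploid genome of the frog Xenopus laevis carries most genes as a homeolog pair, with 1 copy on the long (.L) and 1 on the short (.S) chromosome.

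The 12 samples were neural crest tissue of wild-type Xenopus laevis embryos, in 4 groups of 3. Embryos had been given 60 ng of a morpholino, a synthetic antisense molecule, at the 4-cell stage, into the right dorsal blastomere. Within each of Nieuwkoop and Faber stages 14 and 17, 1 group had received the morpholino against the microRNA miR-196a and the other a mismatch morpholino. All groups therefore share injection and wild-type background, and no uninjected tissue was analysed here. Whether the samples came from separate clutches or dissections is not recorded, so p-values measure the spread between these samples. The batch label repeats the stage, so batch and stage cannot be told apart. Per gene, the authors deposited 1 comparison of the arms at each stage. The sources used here do not say which arm is the numerator, and the arms are therefore called the numerator and the denominator arm. Values of single libraries were not analysed here, and depth per library is unknown.

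In Xenopus, Foxd4l1 proteins (formerly FoxD5) are forkhead transcription factors that hold neural ectoderm in an immature state and act upstream of many other neural transcription factors. Geminin binds the replication licensing factor Cdt1 and also acts on chromatin regulators, and in early Xenopus embryos it promotes neural fate and delays neuronal differentiation. Sox11 is a SoxC transcription factor expressed through the neural plate. All of them are expressed in the neural plate, though not necessarily there alone. Their RNA in neural crest dissections is therefore read beside markers of the crest and of the tissues next to it.

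All 7 gene copies were higher in the numerator arm at both stages, and those of foxd4l1 had the largest fold changes among them. At stage 14 both copies of foxd4l1.1, foxd4l1.2.L and gmnn.S passed the threshold, an adjusted p-value (q) below 0.05 as given by the authors' deposited table. That is 4 of 7 copies, all with positive change, where 8.68% of 17088 genes passed in either direction, 3.06% with positive and 5.62% with negative change. At stage 17 sox11.S passed as well, giving 5 of 7 copies, against 9.96% of 16965 genes in either direction and 4.96% with positive change. The median log2 fold change of the 7 copies was 1.63 at stage 14 and 2.24 at stage 17 per the authors' deposited tables, beside 0.02 and -0.0026 over all genes tested. The middle copy was gmnn.S at both stages, and the lower bounds of copies with an arm at the floor lay above it. Setting those copies to their bounds could therefore not move the medians, and nothing is read from that. In bulk tissue, fewer cells that express a gene and less RNA per cell cannot be told apart.

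**Figure D1:**
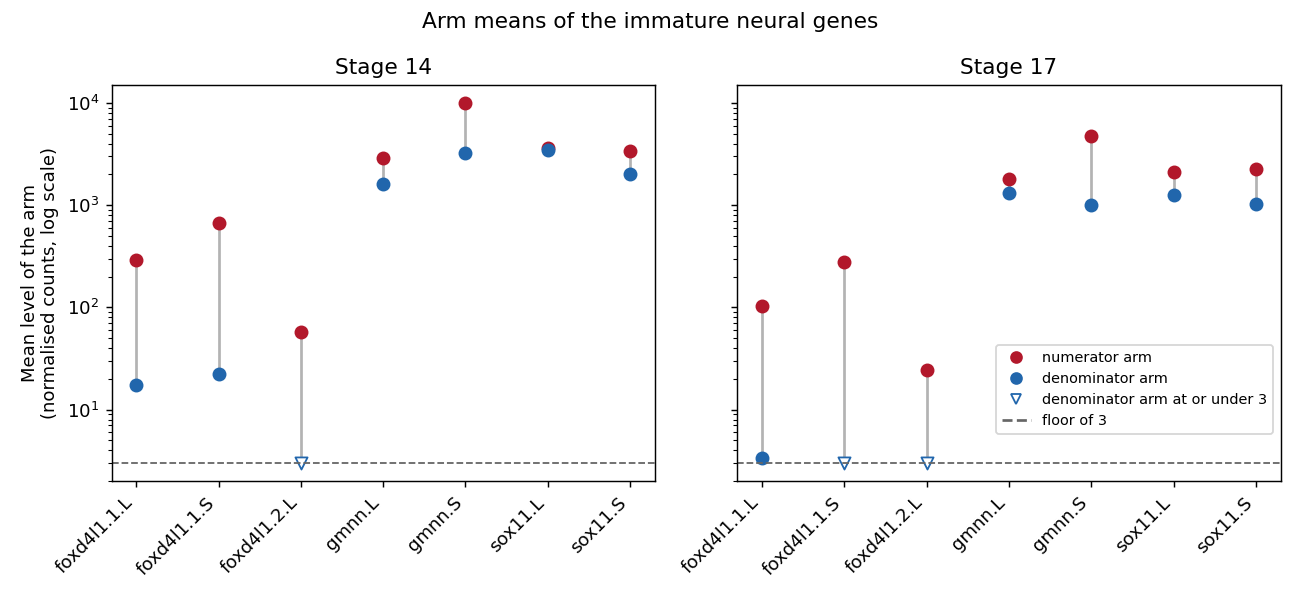
Mean level of each gene copy in the numerator and the denominator arm, in normalised counts on a log axis, at stages 14 and 17. Arms at or under the floor of 3 normalised counts are drawn as open triangles at the floor. The foxd4l1 copies have the widest gap between arms, from 57.4 to 667 in the numerator arm at stage 14 against at most 22.2 in the denominator arm.

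The foxd4l1.1 copies were low in the denominator arm. For foxd4l1.1.S at stage 14 the arm means were 667 and 22.2 normalised counts, computed from the authors' deposited mean and fold change for arms of equal size. The authors' deposited table gave a log2 fold change of 4.91 (standard error 0.53, q = 2.01e-17), a 30.1-fold difference with a 95% interval of 14.6 to 61.8 from the SE. By p-value foxd4l1.1.S stood at rank 16 of 18147 genes at stage 14. For foxd4l1.1.L the arm means were 290 and 17.6 normalised counts, and the authors' deposited table gave a log2 fold change of 4.05 (standard error 0.70, q = 5.55e-07).

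At stage 17 the denominator arm of foxd4l1.1.S fell under 3 normalised counts, the floor below which an arm mean is not used for a ratio. Its numerator arm was at 281 normalised counts, so the numerator arm was at least 93.5-fold higher (q = 4.27e-13 per the authors' deposited table). It stood at rank 24 by p-value among the 18519 genes with a deposited p-value. The authors' adjustment at stage 17 covered 22197 genes, so its rank among all of those is not given. The arm means of foxd4l1.1.L were 103 and 3.36 normalised counts, just above the floor, and the authors' deposited table gave a log2 fold change of 4.94 (standard error 0.94, q = 1.08e-05). With a floor of 10 normalised counts the bounds at stage 17 would be 28.1-fold for foxd4l1.1.S and 10.3-fold for foxd4l1.1.L.

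The second Foxd4l1 gene had an arm under the floor at both stages. The arm means of foxd4l1.2.L were 57.4 normalised counts at stage 14 and 24.2 at stage 17 in the numerator arm, and under the floor in the denominator arm at both stages. Its numerator arm was at least 19.1-fold above its denominator arm at stage 14 (q = 0.00724) and at least 8.08-fold higher at stage 17 (q = 0.0205), with adjusted p-values from the authors' deposited tables. Its SEs of 1.84 and 1.87 on the log2 scale per the authors' deposited tables were the largest among the 7 copies. In RefSeq (assembly Xenopus_laevis_v10.1), the genes foxd4l1.1.L and foxd4l1.2.L lie on either side of 1 further gene, LOC108705665, which overlaps foxd4l1.2.L. The libraries were unstranded and the authors' annotation is not given in the sources used here, so reads of the overlap and of these related copies are assigned with less certainty.

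Geminin passed the threshold through its short chromosome copy at both stages. The arm means of gmnn.S were 9990 and 3222 normalised counts at stage 14, and the authors' deposited table gave a log2 fold change of 1.63 (standard error 0.31, q = 1.12e-05). The stage 17 means were 4722 and 998, with a log2 fold change of 2.24 (standard error 0.35, q = 3.04e-08) per the authors' deposited table. As a fold, the 95% interval of gmnn.S ran from 2.03 to 4.74 at stage 14 and from 2.94 to 7.61 at stage 17.

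The long chromosome copy of geminin did not pass the threshold. The arm means of gmnn.L were 2884 and 1606 normalised counts at stage 14, with a log2 fold change of 0.84 (95% interval 0.15 to 1.54, q = 0.130) per the authors' deposited table. The stage 17 means were 1802 and 1314, with a log2 fold change of 0.46 (95% interval -0.06 to 0.97, q = 0.320) per the authors' deposited table. With the SEs of gmnn.L, under the authors' adjustment passing needed an estimated change of 1.01 (stage 14) or 0.74 (stage 17) in size on the log2 scale. Smaller estimates could not pass, and these cuts are not limits on the true change.

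Sox11 passed the threshold through its short chromosome copy at stage 17. The arm means of sox11.S were 3414 and 2021 normalised counts at stage 14, and the change of 0.76 on the log2 scale (95% interval 0.17 to 1.34, q = 0.0995) per the authors' deposited table did not pass. At stage 17 the arm means of sox11.S were 2239 and 1027, and the authors' deposited table gave 1.12 (standard error 0.24, q = 1.36e-04), a 2.18-fold difference. For sox11.L at stage 14 the arms were nearly level, at 3656 and 3472 normalised counts, and the 95% interval of its log2 fold change per the authors' deposited table ran from -0.55 to 0.70. At stage 17 the arm means of sox11.L were 2095 and 1268, and its change of 0.72 (95% interval 0.21 to 1.24) had an adjusted p of 0.0580 per the authors' deposited table. That call depended on the genes adjusted over, with an adjusted p of 0.0481 over the upper 75% of genes by mean.

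**Figure D2:**
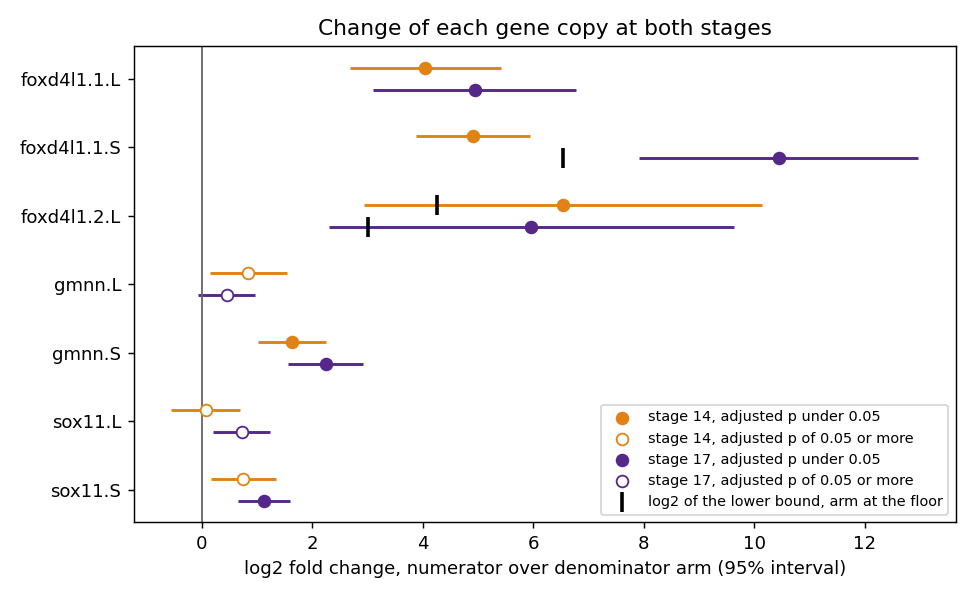
Log2 fold change of each gene copy, numerator over denominator arm, with its 95% interval from the SE per the authors' deposited tables, at stages 14 and 17. Filled points have an adjusted p-value under 0.05, open points do not, and black ticks mark the log2 of the lower bound where an arm was at the floor. All points are right of 0, the foxd4l1 copies at 4.05 or more and the gmnn and sox11 copies at 2.24 or less.

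The copies of a pair were set against each other within each stage, by the difference of their log2 fold changes over the root of the summed squared SEs. The tables give no covariance between genes, and it was taken as 0. A two-sided normal p-value was adjusted by the Benjamini-Hochberg method over all 5333 pairs at stage 14 and 5353 at stage 17, of which 1.29% and 1.31% passed. The .S copy had the larger change in each of the 3 pairs at both stages. How often it did so over all pairs was not counted, so no general lead of .S copies is read from this. Over all pairs the median absolute difference was 0.55 at stage 14 and 0.48 at stage 17. For gmnn at stage 17 the difference of .S minus .L was 1.79 (standard error 0.44, q = 0.00713), and at stage 14 it was 0.79 (95% interval -0.14 to 1.71, q = 0.681). Of the summed reads of the gmnn pair, the .S copy made up 77.6% in the numerator and 66.7% in the denominator arm at stage 14. At stage 17 these shares were 72.4% and 43.2%.

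For sox11 the difference between copies was 0.68 (95% interval -0.18 to 1.54) at stage 14 and 0.40 (95% interval -0.30 to 1.097) at stage 17, and neither passed. For foxd4l1.1 it was 0.86 (95% interval -0.85 to 2.58) at stage 14. At stage 17 the fitted difference of 5.50 (SE 1.59) had an adjusted p of 0.0436, but it rests on the .S copy with its denominator arm under the floor. With that copy at its bound, the difference was 1.61 (q = 0.958). This is a lowest value tested with the SE of the fit, so equal change of the copies is not read from it.

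Sums over the copies of a pair do not depend on how reads were divided between them, as long as reads matching both copies were kept. Whether such reads were kept is not given in the sources used here. The foxd4l1.1 pair had 958 and 39.7 normalised counts in the numerator and denominator arms at stage 14, a 24.1-fold difference. At stage 17 its arms were at 384 and, with the .S copy set to the floor, 6.36, which makes it at least 60.3-fold higher. For the gmnn pair the summed fold was 2.67 at stage 14 and 2.82 at stage 17. For the sox11 pair it was 1.29 and 1.89. The copies combined by inverse variance gave log2 fold changes of 1.29 (SE 0.23) and 1.099 (SE 0.21) for gmnn, and of 0.44 (SE 0.22) and 0.94 (SE 0.18) for sox11, at stages 14 and 17. Combining takes the copies to share 1 change with no covariance, and the gmnn copies differed at stage 17. Its combined change was lower at stage 17 and its summed fold higher, so no order of the stages is read from either.

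**Figure D3:**
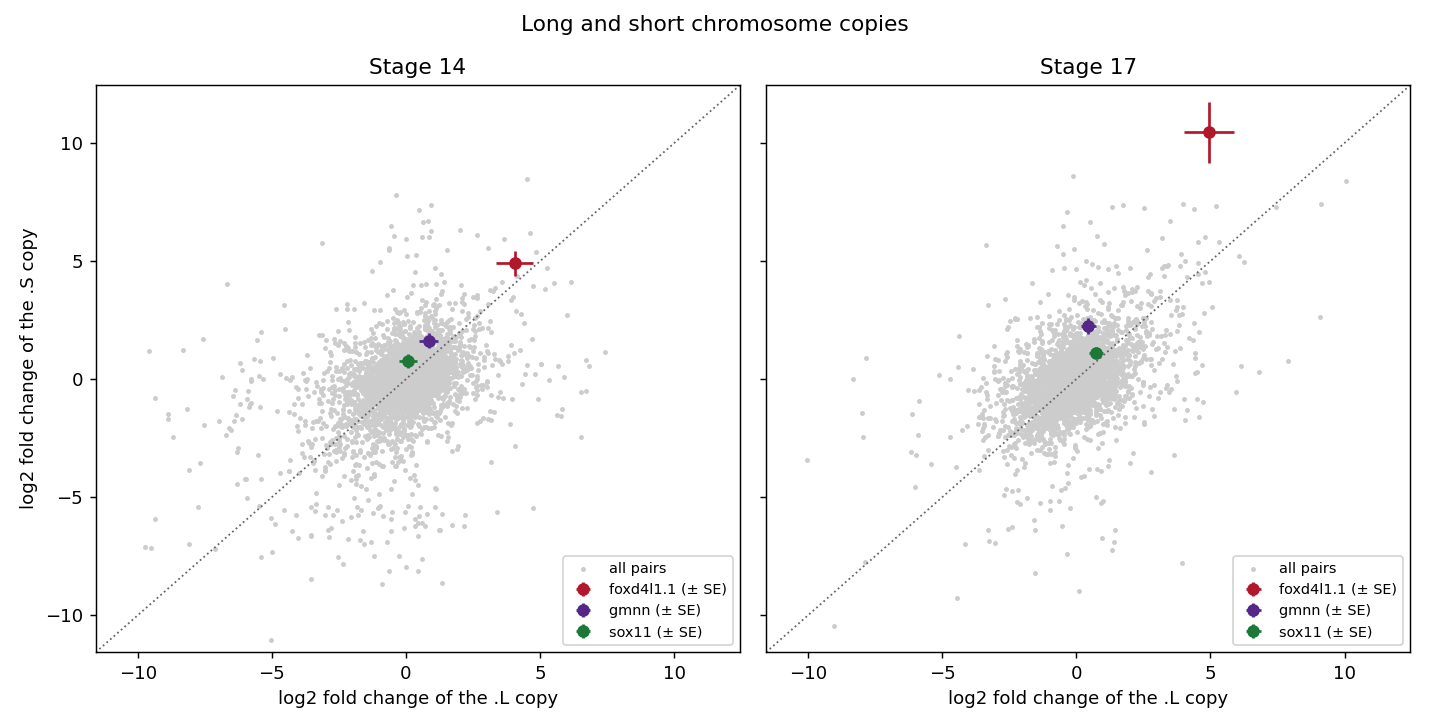
Log2 fold change of the .L copy against that of the .S copy per the authors' deposited tables, at stages 14 and 17, with all pairs in grey and the 3 pairs of immature neural genes in colour with SE bars. Points above the dotted line have the larger change in the .S copy. All 3 pairs lie above it, gmnn at stage 17 by 1.79, and the share of all pairs above it was not counted. The foxd4l1.1 point at stage 17 is a fitted value with an arm at the floor.

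The next comparison asked whether the response of these genes differs between stages. For each gene, the log2 changes were subtracted, and the result over the root of the summed squared SEs was tested for 16194 genes with a normal p-value and Benjamini-Hochberg adjustment, and 1.51% passed. Among the 7 copies foxd4l1.1.S passed, with a fitted difference of stage 17 minus stage 14 of 5.53 (standard error 1.39, q = 0.00947). With the stage 17 change of foxd4l1.1.S at its bound, the difference was 1.64 (q = 0.948), which is a lowest value. That q kept the SE of the fitted value, so equal change at the stages is not read from it. For the foxd4l1.1 copies combined, the difference was 2.24 (standard error 0.87, q = 0.140). The combined value still used the fitted stage 17 change of foxd4l1.1.S, with its arm under the floor. For foxd4l1.1.L the difference was 0.89 with a 95% interval of -1.39 to 3.18.

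The changes of geminin and Sox11 did not differ detectably between stages. The difference was 0.61 (95% interval -0.31 to 1.53) for gmnn.S and -0.39 (95% interval -1.25 to 0.47) for gmnn.L. It was 0.65 (95% interval -0.16 to 1.46) for sox11.L and 0.37 (95% interval -0.38 to 1.12) for sox11.S. For foxd4l1.2.L the interval of -5.71 to 4.56 was too wide to place the stages in order.

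The arm means of the 7 copies were lower at stage 17 than at stage 14 wherever both were above the floor. The tables were normalised separately, so these ratios are descriptions. Over 9994 genes with a mean of at least 100 in both tables, the median log2 ratio of stage 17 to stage 14 was -0.05 in the numerator and -0.14 in the denominator arm. The numerator arm of gmnn.S at stage 17 was at 47.3% of its stage 14 level and the denominator arm at 31.0%. For sox11.L these values were 57.3% and 36.5%, for sox11.S 65.6% and 50.8%, and for foxd4l1.1.L 35.5% and 19.1%. In these 4 copies the denominator arm fell further than the numerator arm. For gmnn.L the order was the opposite, at 62.5% and 81.8%. On the log2 scale, the gap between the falls of the arms is the difference between stages given above. That difference passed for none of these copies, so no order of the arms is read from the percentages.

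**Figure D4:**
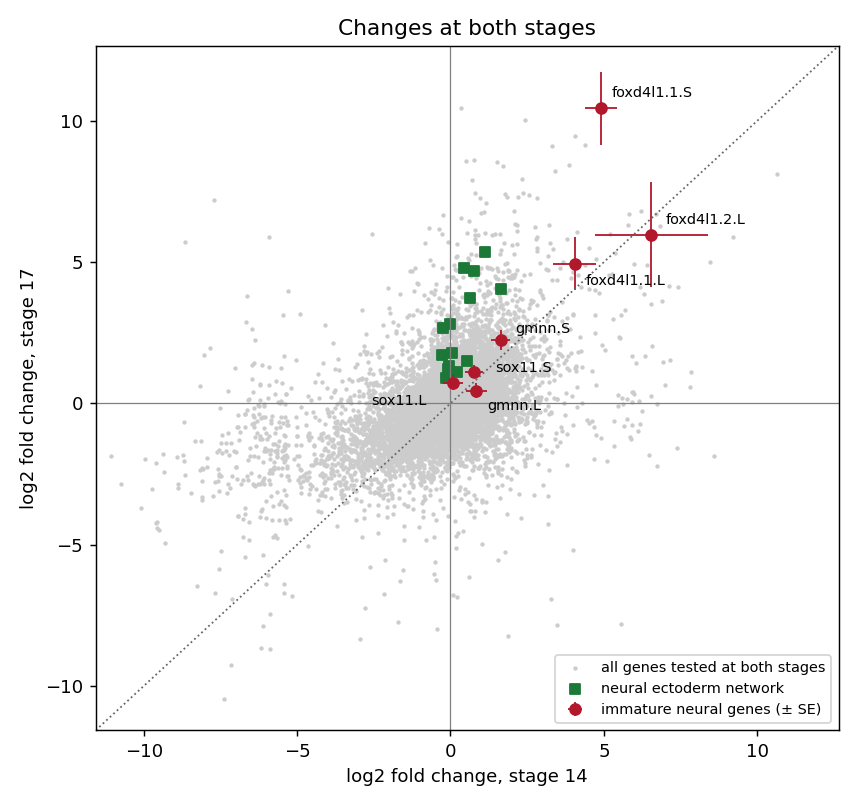
Log2 fold change at stage 14 against stage 17 per the authors' deposited tables, for all 16194 genes tested at both stages (grey), 14 genes of the neural ectoderm network (green) and the 7 immature neural gene copies (red, with SE bars). The dotted line marks equal change. The network genes lie between -0.28 and 1.65 at stage 14 and between 0.91 and 5.35 at stage 17. The foxd4l1 copies are at 4.05 or more at stage 14, and pou5f3.2.L, among the grey points, is at 4.39.

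The other transcription factors of the neural ectoderm network changed mostly at stage 17. The list held zic1, zic2, sox2, sox3, sox15 (known in Xenopus as soxD), irx1, irx2 and irx3, in 14 copies. At stage 14, 2 of 14 passed, both positive, beside 3.06% of all genes with positive change, and the median log2 fold change per the authors' deposited table was 0.14. At stage 17, 12 of 14 passed, all positive, beside 4.96% of all genes, with a median of 2.22. The SoxB1 factor sox3, which keeps neural progenitors undifferentiated, was among the 2 at stage 14, where sox3.S had a log2 fold change of 1.65 (standard error 0.33, q = 3.83e-05) per the authors' deposited table. The other was sox2.L, at 1.11 (standard error 0.32, q = 0.00858) per the authors' deposited table. The network genes that did not pass at stage 17 were sox15.L at 0.91 (q = 0.0657) and irx2.S at 1.09 (q = 0.155) per the authors' deposited table.

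The zic genes are zinc finger factors of the neural plate and its border. The changes of zic2.L and zic2.S were -0.06 (SE 0.29) and -0.24 (SE 0.28) at stage 14, and 1.32 (SE 0.34) and 2.66 (SE 0.38) at stage 17, per the authors' deposited tables. For zic1.L and zic1.S they were 0.06 (SE 0.32) and 0.62 (SE 0.28) at stage 14, and 1.78 (SE 0.39) and 3.72 (SE 0.46) at stage 17, per the authors' deposited tables. The Iroquois genes irx1.L and irx1.S were at 0.53 (SE 0.33) and -0.28 (SE 0.34) at stage 14, and at 1.5004 (SE 0.31) and 1.69 (SE 0.29) at stage 17, per the authors' deposited tables. The authors' deposited tables gave irx3.S a change of -0.02 (SE 0.80) at stage 14 and 2.81 (SE 0.39) at stage 17, and irx2.L -0.08 (SE 0.29) and 1.21 (SE 0.34). The test of the difference between stages passed for 8 of the 14 network genes, all more positive at stage 17, where 1.3% of all genes did so, and for 1 of the 7 immature neural copies. The difference between those groups of genes was not tested.

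Replication licensing genes act with geminin in the control of DNA replication. The list used here also held the cyclin A and E genes ccna1, ccna2, ccne1 and ccne2. Copies of ccna2 at stage 14, and of ccna2, ccne1 and ccne2 at stage 17, were among those that passed with positive change. The counts are therefore not counts of licensing factors alone. Of 33 copies on the list, 3 passed with positive and 1 with negative change at stage 14, and 9 with positive and 1 with negative change at stage 17. Of all genes, 8.68% passed in either direction at stage 14 and 9.96% at stage 17, so the stage 14 count is near the background. Their median log2 fold change was 0.24 (stage 14) and 0.51 (stage 17) per the authors' deposited tables. The cyclin A gene ccna2.L had changes of 1.85 (standard error 0.32, q = 5.15e-07) and 2.102 (standard error 0.40, q = 1.29e-05) at stages 14 and 17 per the authors' deposited tables, and its homeolog ccna2.S 0.87 (standard error 0.29, q = 0.0338) and 1.21 (standard error 0.32, q = 0.00301). The licensing factor cdc6.L changed by 1.58 (standard error 0.36, q = 3.32e-04) and 1.77 (standard error 0.35, q = 2.43e-05) per the authors' deposited tables. The direct partner of geminin, cdt1, passed for cdt1.L at stage 17, at 1.27 (standard error 0.39, q = 0.0161) per the authors' deposited table, and cdt1.S was at 0.67 (q = 0.127). Per the authors' deposited tables the negative genes were mcm6.L at stage 14, at -1.25 (standard error 0.37, q = 0.0120), and ccna1.L at stage 17, at -2.14 (standard error 0.69, q = 0.0271).

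Further genes of the licensing list passed at stage 17, several of them cyclins. No copy of the origin recognition genes (orc) passed at either stage. Among the mcm copies only mcm7.L passed with positive change, at 0.80 (q = 0.0350) at stage 17 per the authors' deposited table. The helicase factor cdc45.L was at 0.92 (q = 0.0819) at stage 14 and 1.30 (standard error 0.31, q = 0.00116) at stage 17 per the authors' deposited tables. The cyclin E genes ccne2.L and ccne2.S were at 1.37 (standard error 0.37, q = 0.00523) and 1.15 (standard error 0.30, q = 0.00266) at stage 17 per the authors' deposited table. Of the chromatin regulators set beside geminin, 0 of 15 copies passed at stage 14 and 4 at stage 17, all positive, namely ezh2.L at 0.75 (q = 0.0331), smarcb1.S at 0.80 (q = 0.0353), eed.L at 0.85 (q = 0.0482) and eed.S at 0.78 (q = 0.0493) per the authors' deposited table. Of all genes, 8.68% passed at stage 14, and 4.96% passed with positive change at stage 17. The genes ezh2 and eed encode subunits of Polycomb complex PRC2, and smarcb1 a subunit of the BAF complex. The ATPase subunit of that complex, smarca4, was between -0.34 and 0.09 in both copies at both stages per the authors' deposited tables and did not pass.

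Proneural and neuronal genes, which act after the immature state, passed in both directions at stage 17. At stage 14, 1 of 24 copies tested passed, and at stage 17, 3 passed with positive and 6 with negative change among 28 tested. Of all genes, 8.68% passed at stage 14, and 4.96% passed with positive and 5% with negative change at stage 17. The gene that passed at stage 14 was neurog3.S, which had its denominator arm under the floor with the numerator arm at least 15.0-fold higher (q = 0.0205 per the authors' deposited table). The neuronal differentiation factors neurod1 and neurod4 were lower in the numerator arm at stage 17, at -1.91 (standard error 0.52, q = 0.00510) for neurod1.L, -2.69 (standard error 0.60, q = 3.42e-04) for neurod1.S, -1.60 (standard error 0.34, q = 1.35e-04) for neurod4.L and -1.80 (standard error 0.43, q = 8.58e-04) for neurod4.S per the authors' deposited table. The LIM homeobox gene isl1.S, expressed in early neurons, was at -2.16 (standard error 0.59, q = 0.00497) per the authors' deposited table. The Notch ligand gene dll1.L went the other way at stage 17, at 1.62 (standard error 0.42, q = 0.00274) per the authors' deposited table. At stage 14 neurod1.L was at -3.34 (SE 1.48), neurod4.L at -1.46 (SE 1.78) and neurod4.S at -2.04 (SE 1.11). There isl1.S was at -2.54 (SE 1.62), dll1.L at 0.23 (SE 0.42), and neurod1.S had its numerator arm under the floor. None of these passed at stage 14. The test of the difference between stages passed for 0 of 24 proneural and neuronal copies, beside 1.51% of all genes. That count is near the share of all genes, so no likeness of the stages is read from it.

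**Figure D5:**
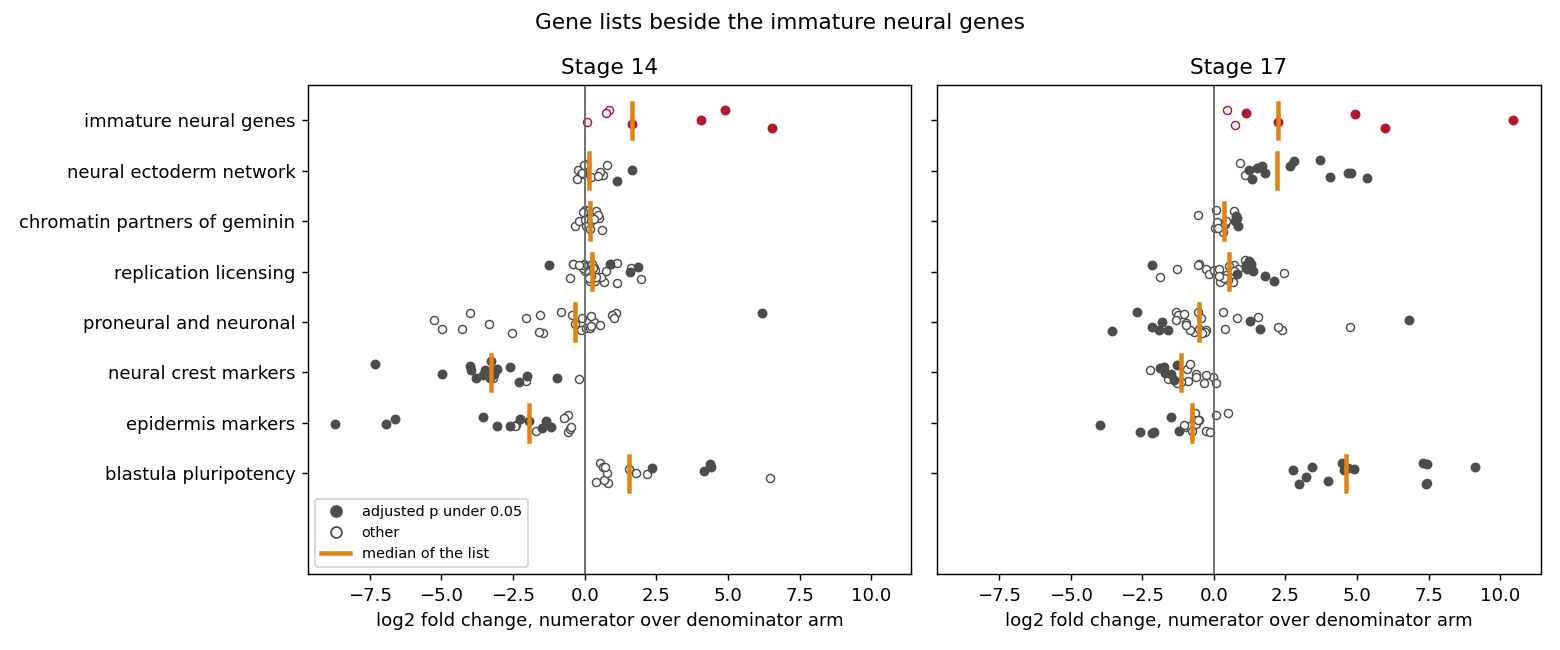
Log2 fold change of each gene copy per the authors' deposited tables, numerator over denominator arm, by gene list at stages 14 and 17. Filled points have an adjusted p-value under 0.05 and the orange bar is the median of the list. The immature neural genes have medians of 1.63 and 2.24, the network list 0.14 and 2.22, and the neural crest markers -3.25 and -1.14.

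The closest relatives of the 4 genes were counted in the same way, beside 8.68% of all genes passing at stage 14 and 9.96% at stage 17. With so few copies a count of 0 is near those shares, and no lack of response is read from it. The other SoxC genes sox4 and sox12 had 0 of 3 tested copies past the threshold at each stage per the authors' deposited tables, at unadjusted p-values from 0.0262 (sox4.L at stage 17) upwards. Among them sox4.L was at -0.14 (SE 1.07) and -1.097 (SE 0.49), sox4.S at 0.35 (SE 0.58) and 0.05 (SE 0.51), and sox12.L at -1.36 (SE 1.55) and -0.98 (SE 1.34) at stages 14 and 17 per the authors' deposited tables. The geminin relatives mcidas and gmnc, regulators of multiciliated cells, had 0 of 4 tested copies past the threshold at stage 14 and 0 of 2 at stage 17. Per the authors' deposited tables, mcidas.L was at -4.71 (SE 2.40) and -0.75 (SE 0.62), and mcidas.S at -3.96 (SE 2.68) and -0.44 (SE 0.65). Both copies of gmnc had a denominator arm under the floor wherever they were present.

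Of the other forkhead D genes, foxd3, a neural crest regulator, had negative changes at stage 14, at -3.98 (standard error 1.06, q = 0.00392) for foxd3.L and -3.99 (standard error 0.83, q = 6.60e-05) for foxd3.S per the authors' deposited table. At stage 17 foxd3.L and foxd3.S stood at -0.27 (SE 1.03) and -0.33 (SE 0.87) per the authors' deposited table. The numerator arm of foxd1.L was at least 17.0-fold above its denominator arm at stage 17 (q = 0.0112 per the authors' deposited table), and at stage 14 it was at 0.73 (SE 1.99). The other copies, of foxd2 and foxd1.S, did not pass or had no q.

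The genes with changes nearest to each immature neural gene were found by the Euclidean distance of the log2 fold changes at both stages, that is over 2 values, among 2505 genes tested at both stages and past the threshold at 1 or more. For foxd4l1.1 the rule gave cr1b, ntn3.L and pou5f3.2.L, and for foxd4l1.2.L it gave mmel1.S, c2.L and neurog3.S. These genes, like foxd4l1.1.S and foxd4l1.2.L, have an arm under the floor at 1 stage or both. Their fitted fold changes are therefore not measured sizes, and no distance or order is read from them. For a gene with both copies present, distances were taken from the plain mean of its copies, not from the changes combined by inverse variance. Nearest to gmnn (means of 1.24 and 1.35) were znf106.L, eny2.S and rilpl1.S at distances of 0.03, 0.04 and 0.06. At stage 17 that mean lies between gmnn.L at 0.46 and gmnn.S at 2.24, so it is the value of neither copy. Nearest to sox11 (0.42 and 0.92) were pygo2.L, ncstn.S and znf326.S at distances of 0.02, 0.03 and 0.04. With 2 values a gene, many genes lie close to gmnn and sox11, and these SEs exceed the distances.

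Markers of the labelled tissue and of its neighbours moved with the arms. Neural crest markers had summed arm means of 5251 in the numerator and 36439 in the denominator arm at stage 14, and 46411 and 95390 normalised counts at stage 17. Of 19 copies, 16 passed with negative change at stage 14 and 6 at stage 17 per the authors' deposited tables. Among all genes 5.62% passed with negative and 3.06% with positive change at stage 14. At stage 17 these shares were 5% and 4.96%. Epidermis markers summed to 34037 and 173383 at stage 14, with 11 of 18 tested copies passing with negative change, and to 72572 and 200051 at stage 17, with 6 of 19. Neural plate markers, of which 5 of 12 copies are also network genes, summed to 34080 and 20517 at stage 14, and to 24442 and 5674 at stage 17. With positive change, 6 of 12 of them passed at stage 14 and 11 at stage 17, and nrp1.L passed with negative change at stage 14. In RefSeq, nrp1.L is neuropilin, and XNrp-1, an older name of a neural marker, belongs to msi1, so nrp1.L is not read as a neural plate marker. The list fixed beforehand held nrp1 and not msi1, which was added after other values had been seen. At stage 14 nrp1.L was at -3.26 (standard error 0.55, q = 3.58e-07) per the authors' deposited table. The sums and counts above still hold it, with arm means of 58.6 and 562 at stage 14 and 2203 and 1861 at stage 17. It was the copy that did not pass at stage 17 (q = 0.922 per the authors' deposited table). Per the authors' deposited tables, msi1.L was at 0.33 (SE 0.26) and 0.55 (SE 0.28), and msi1.S at 0.34 (SE 0.27) and 1.40 (standard error 0.24, q = 5.15e-07), at stages 14 and 17.

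Blastula pluripotency genes of the pou5f3 and ventx families summed to 32313 in the numerator and 17068 in the denominator arm at stage 14, and to 13239 and 1151 at stage 17. Of these, 4 of 15 copies passed with positive change at stage 14 and 13 of 14 at stage 17 per the authors' deposited tables. Among all genes 3.06% and 4.96% did so. At stage 14 the copies that passed were pou5f3.2.L at 4.39 (standard error 0.46, q = 2.66e-18) and pou5f3.2.S at 2.36 (standard error 0.46, q = 1.29e-05). The others were pou5f3.3.L at 4.15 (standard error 1.40, q = 0.0383) and pou5f3.3.S at 4.39 (standard error 0.64, q = 1.71e-09), per the authors' deposited table. Changes as large as those of the foxd4l1.1 copies were therefore also present in this list at stage 14. Muscle and mesoderm markers had summed means of 77.3 and 102 at stage 14 and 48.2 and 85.8 at stage 17. Of these, 1 of 5 tested copies passed with negative change at stage 14 and 1 of 3 at stage 17, beside 5.62% and 5% of all genes. They were myod1.S at stage 14 (q = 0.0493), with its numerator arm under the floor, and tbxt.S at stage 17, at -2.98 (standard error 0.99, q = 0.0322), per the authors' deposited tables. Endoderm markers summed to at most 45.7 in any arm.

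The listed notochord markers had positive fitted changes, as the immature neural genes had. They were chordin, listed as chrd.1 and chrd.2, and noto, listed as not, while shh was not analysed here. These symbols were matched after other values had been seen. Their 5 copies summed to 1361 in the numerator and 412 in the denominator arm at stage 14, and to 625 and 84.8 normalised counts at stage 17. All 5 had positive changes at both stages, and 2 passed at each, beside 3.06% and 4.96% of all genes with positive change. Per the authors' deposited tables, not.L was at 3.57 (standard error 0.70, q = 1.82e-05) and not.S at 4.11 (standard error 1.02, q = 0.00149) at stage 14. At stage 17, chrd.1.S was at 2.91 (standard error 0.63, q = 1.75e-04) and chrd.2.L at 4.69 (standard error 1.12, q = 9.84e-04) per the authors' deposited tables. The not copies did not pass at stage 17, at 1.73 (q = 0.435) for not.L and 1.34 (q = 0.743) for not.S. The gene tbxt was counted above with mesoderm. Its copy tbxt.S went the other way, at -0.82 (q = 0.804) at stage 14 and -2.98 (q = 0.0322) at stage 17. The part of tissue makeup in the changes of foxd4l1, gmnn and sox11 was not tested.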

How the data were processed

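RNA of the 12 samples was sequenced from unstranded libraries, per the labels' protocols. STAR 2.7.3a and DESeq2 are named in the submitters' processing notes; genome build, annotation and filters are not given in the sources used here. For each stage 1 table was deposited, with DESeq2-style column names per the file headers. Each row has a mean normalised count (a signal scaled between libraries by the authors), a log2 fold change with its SE on the log2 scale, their ratio as a test score, and a p-value and adjusted p-value, all deposited by the authors. The tables hold 18206 and 18556 genes, of which 17088 and 16965 have an adjusted p-value. The authors' adjustment covered 17088 genes at stage 14 and 22197 at stage 17, computed from the lowest p-value. The latter exceeds the rows of the table, so ranks and shares of all genes at stage 17 are over the deposited genes only. The mean normalised counts summed to 1.67e+07 and 1.47e+07.

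From these values, arm means, 95% intervals (normal, from the SE), lower bounds against 3 normalised counts per arm mean, differences between stages and between homeologs, and counts per list were computed with Python 3.11.15, numpy 2.4.6, pandas 2.3.3 and scipy 1.17.1. An edgeR test of counts had been planned for the case of values per sample and was replaced by the authors' adjusted p-values. The difference tests were checked on simulated data with independent normal errors of the deposited SEs and no arm at the floor. That check therefore does not cover covariance between copies or arms at the floor. Named genes were all 7 members, the network list, relatives, up to 6 genes of each further list by lowest p-value, and the 3 nearest genes. The genes cdt1, mcm6.L, mcm7.L, the orc genes, ccna1.L, ccne1, smarca4, neurog3.S, pou5f3.2 and pou5f3.3 were named after their values were seen. The gene msi1 was on none of the lists fixed beforehand. On the lists, cdt2 is another name of dtl and foxd5 of foxd4l1, and neurod2 was not analysed here. A gene of the network list is not reported here and was left out of its counts. RefSeq symbols matched all 7 copies. Members and lists were chosen with earlier results of these data known. Alternatives were other thresholds, other adjustments, recentring, combined homeologs and a floor of 10.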

Additional observations from a re-analysis of the deposited data

Results flagged for a closer look

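Changes of named genes that differed between stages, by the normal test on the SEs of the authors' deposited tables (q, Benjamini-Hochberg over 16194 genes), are given as stage 17 minus stage 14 on the log2 scale. The difference was 5.53 (standard error 1.39, q = 0.00947) for foxd4l1.1.S, with its stage 17 denominator arm under the floor. Among SoxB1 genes it was 4.24 (SE 0.96) for sox2.L, 3.92 (SE 0.54) for sox3.L and 2.42 (SE 0.48) for sox3.S. Among zic genes it was 1.72 (SE 0.50) for zic1.L, 3.095 (SE 0.54) for zic1.S and 2.90 (SE 0.47) for zic2.S. For the Iroquois genes it was 1.97 (SE 0.44) for irx1.S and 4.32 (SE 1.09) for irx3.L. The cyclin gene ccne2.S had a difference of 1.35 (standard error 0.39, q = 0.0401).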

How the results depend on the processing

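Of 69 alternatives of the counts of genes, 59 stayed within 1.5 times the reported count. With homeologs combined, 0 of the 3 pairs differed between stages, and with changes at the floor set to their bounds, an alternative chosen after seeing the data, 0 of the 7 copies did. Those bounds left 1 pair, gmnn, whose copies differed at stage 17. The bounds were tested with the SEs of the fits, so a call lost under them does not show equal change. At a threshold of 0.01 the proneural count was 0 at stage 14, the licensing count 2 at stage 14 and 6 at stage 17, and the count of relatives and chromatin partners 0 at stage 17. That last count was 3 after recentring on genes with a mean of at least 100, and 1 with a minimum absolute change of 1 on the log2 scale. Over the upper 75% of genes by mean, the proneural count at stage 14 was 0. Of 40 alternatives of single fold changes, 39 kept their side of the threshold and 1, that of sox11.L, passed it. Those 40 do not hold foxd4l1.2.L over the upper 75% of genes by mean, because its mean lay under that cut. Over those genes the count of copies was 3 rather than 4 at stage 14. It stayed at 5 at stage 17, with sox11.L in the place of foxd4l1.2.L. With a floor of 10, the bounds of foxd4l1.2.L were 5.74-fold at stage 14 and 2.42-fold at stage 17. The cause of these shifts was not tested. No paired analysis was possible because the groups share no replicate numbers and the tables hold no values per sample; replicates could not be left out in turn for the same reason. Low counts limit the foxd4l1 copies. An estimated change of gmnn.L or sox11.L under 0.74 on the log2 scale at stage 17 could not pass under the authors' adjustment.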

Other observations

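The genes next to the immature neural genes in RefSeq (assembly Xenopus_laevis_v10.1) were read with 1 gene taken on each side. Of these, 6 neighbours had an adjusted p-value at stage 14 and 5 at stage 17 per the authors' deposited tables, and 1 and 0 of them passed the threshold, beside 8.68% and 9.96% of all genes. Both copies of geminin lie beside a copy of c6orf62. Per the authors' deposited tables c6orf62.S, beside gmnn.S, had a log2 fold change of 0.12 (standard error 0.26, q = 0.899) at stage 14 and 0.41 (standard error 0.26, q = 0.395) at stage 17. Its homeolog c6orf62.L, beside gmnn.L, was at -0.05 (SE 0.34) and -0.16 (SE 0.31) per the authors' deposited tables. The neighbour that passed was XB5815362.S, beside foxd4l1.1.S, at 1.86 (standard error 0.51, q = 0.00570) at stage 14 and 1.44 (standard error 0.69, q = 0.196) at stage 17 per the authors' deposited tables.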
